A study of Sus scrofa with 12 samples.

Results

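The liver releases glucose into the blood by gluconeogenesis, which builds it from lactate, amino acids and glycerol. Lactate is first turned into pyruvate by lactate dehydrogenase, and the pathway then runs glycolysis backwards, with its own enzymes at the steps that glycolysis cannot reverse. The mRNA of PCK1 and of G6PC is known to be raised by glucagon and fasting and lowered by insulin, whereas PC and FBP1 are known to be controlled also by metabolites that bind the enzymes. The genes described here are 9 of that route: LDHA and LDHB for lactate, PC, PCK1, PCK2, FBP1, G6PC and SLC37A4 for the irreversible steps and the release of glucose, and the coactivator PPARGC1A. They were chosen by symbol, and 7 of the 9 symbols stood among the 31692 gene identifiers of the mRNA profiles.

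Jinhua (JH), a Chinese local breed known for fat deposition, was compared with Landrace (LD), a lean commercial breed. Liver was taken from 3 uncastrated male pigs of each breed at 70 days of age, and each pig gave 1 mRNA library. No treatment or genetic modification was described for either breed, and the feeding state of the pigs at sampling was not given in the sources used here. The small RNA libraries of the same pigs were not used here.

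Levels are RPKM, the reads of a gene scaled to its length and to the total reads of its library, so that genes of different length may be set side by side. Between 5744908 and 7914515 reads per library stood behind these values, as inferred from the digits of the RPKM. These totals are lower than the clean reads that the paper reports for the libraries, and the reason was not tested. The ribosomal RNA entry RN18S ranged from 1570 to 62257 RPKM and was highest in JH3. The hepatocyte marker ALB lay between 27533 and 53893 RPKM in all 6 libraries, and markers of hepatocytes made up 67822 to 81704 RPKM in JH and 86300 to 100088 RPKM in LD. Liver was therefore the tissue the markers showed, although APOB, another defining hepatocyte gene, was listed at 0 in every library.

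PC and LDHB were called higher in JH than in LD, and no gene of the group was called lower. Of the 6 fits that left out a library, PC was called in 6 and LDHB in 2. PC, which carboxylates pyruvate to oxaloacetate in mitochondria and opens the pathway, stood 5.62-fold higher in JH. LDHB, the lactate dehydrogenase subunit that is known to favour the direction from lactate to pyruvate, stood 10.1-fold higher. LDHA, PCK1, PCK2, FBP1 and SLC37A4 did not pass the test. Both genes called act where lactate and pyruvate enter the route, and neither gene of the PEPCK step was called. A call required a log2 fold change above 1 in either direction, JH over LD on log2(RPKM + 0.1), and a p below 0.05 after Benjamini-Hochberg adjustment over all genes tested.

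All 7 listed genes passed the filter on low values and were tested, 2 of them were called, and both were higher. Of the 12991 genes tested, 2.39% were called, 1.02% as higher in JH and 1.36% as lower. At an unadjusted p below 0.05, 4 of the 7 were higher in JH, against 8.34% of all genes tested. In 3 of the 7 all JH values lay above all LD values, which held for 10.8% of all genes tested. In 0 of the 7 did all JH values lie below all LD values, against 12.5% of all genes tested. The log2 fold change was above 0 in 6 of the 7 and in 52.9% of all genes tested, and the median was 0.90 in the group and 0.04 over all genes tested. The members were named with earlier results of these data known, so these shares describe the group and do not test it.

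**Figure D1:**
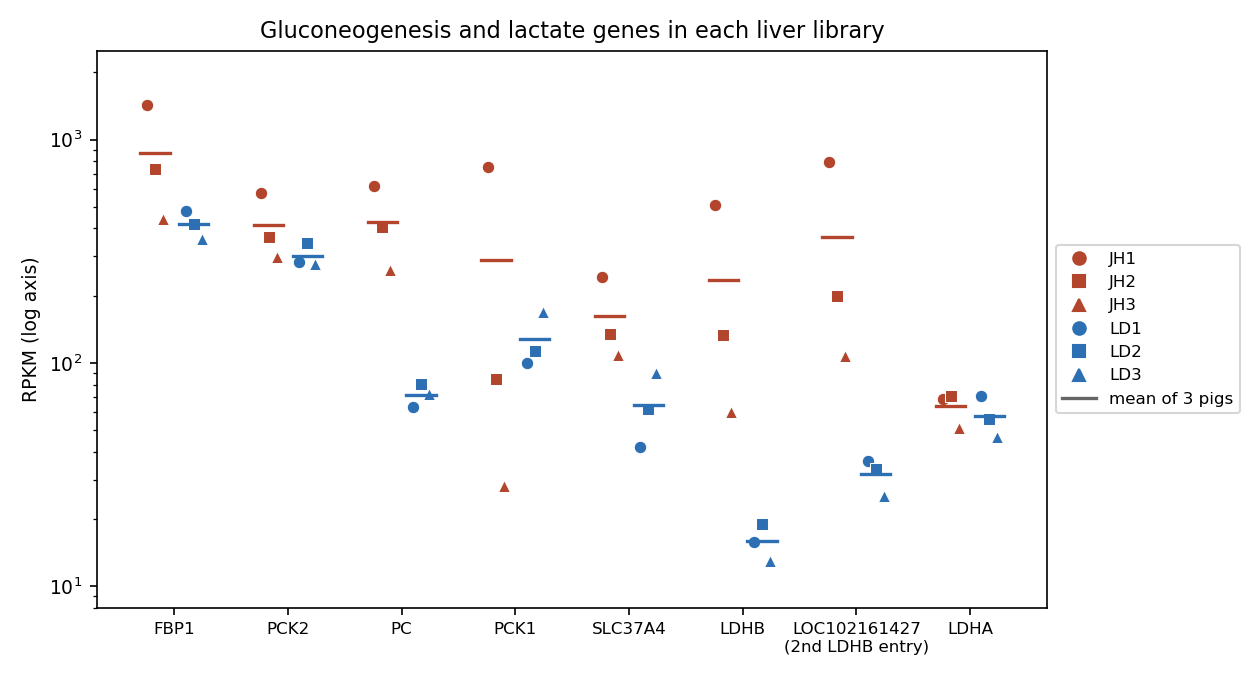
RPKM on a log axis of the 7 listed genes and of the second LDHB entry, LOC102161427, in the 3 JH libraries (red) and the 3 LD libraries (blue), with a line at each breed's mean. PC, LDHB and LOC102161427 have 3 separate JH points above the LD points, SLC37A4 has a narrow gap between the breeds, and PCK1 in JH spans 28.0 to 753.

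For the first step of the route, PC measured 618 RPKM in JH1, 406 in JH2 and 260 in JH3, and 63.2 in LD1, 80.2 in LD2 and 72.2 in LD3. Each JH pig exceeded each LD pig, the lowest JH value being still above 3 times the highest LD value, and the LD pigs lay close to each other. The means were 428 ± 180 in JH and 71.9 ± 8.52 in LD (SD, n = 3 each). The log2 fold change was 2.49 with an SE of 0.33 and a 95% interval of 1.76 to 3.22, at an adjusted p of 0.00751 in limma. PC ranked 194 of the genes tested by its mean in JH and 853 by its mean in LD. The reads behind it numbered 4434 to 7829 in JH and 989 to 1396 in LD, so counting error was small against the spread between pigs. PC stayed called without each library in turn, with log2 fold changes of 2.18 to 2.81 and adjusted p values of up to 0.0490, the latter without LD1. The exact two-sided permutation test gave 0.1 for PC, for LDHB and for SLC37A4, which is the smallest p that 3 pigs against 3 can give.

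PC lies in the RefSeq order of pig genes between SYT12 and RCE1, apart from genes that were not analysed here. RCE1, a protease that processes prenylated proteins, measured 55.8, 47.2 and 20.5 RPKM in the JH libraries and 9.13, 13.8 and 10.1 in the LD libraries. It was called higher in JH at a log2 fold change of 1.80 (SE 0.38, adjusted p = 0.0466 in limma), and in 1 of the 6 fits that left out a library, with adjusted p values of up to 0.165. It was not called in the fit with a replicate block (adjusted p = 0.0504). Of the next genes, CCS, the copper chaperone of superoxide dismutase, differed by 0.79 (adjusted p = 0.143), LOC100625773 by 0.49 (adjusted p = 0.619) and SYT12 by -0.35 (adjusted p = 0.762). These neighbours were read after the values of PC had been seen. The gene LRFN4 lies within PC in that order and was not analysed here, and as the handling of strand was not given, reads of overlapping genes cannot be told apart.

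At the lactate step, LDHB measured 511 RPKM in JH1, 134 in JH2 and 60.2 in JH3, and 15.8 in LD1, 19.1 in LD2 and 13.01 in LD3. Every JH value was above every LD value, but the JH pigs spanned 8.47-fold among themselves, against 1.46-fold in the LD pigs. The means were 235 ± 242 in JH and 16.0 ± 3.03 in LD (SD, n = 3 each), so the SD in JH was as large as the mean. The log2 fold change was 3.34 with an SE of 0.64 and a 95% interval of 1.90 to 4.77, at an adjusted p of 0.0356 in limma. LDHB ranked 323 of the genes tested by its mean in JH and 2970 by its mean in LD. The reads numbered 597 to 3762 in JH and 132 to 193 in LD.

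The call of LDHB rested on all of the libraries other than JH1 and JH3. Without JH2 the adjusted p was 0.0770, without LD1 0.120, without LD2 0.0960 and without LD3 0.0918, whereas without JH1 it was 0.0210 and without JH3 0.00861. The log2 fold change lay between 2.50, without JH1, the highest pig, and 4.04, without JH3, the lowest JH pig. The direction thus did not turn in any of these fits, while the side of the threshold did.

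RefSeq lists the symbol LDHB for 2 pig genes, and the second, LOC102161427, has an entry of its own in the profiles. It measured 795, 199 and 107 RPKM in JH1, JH2 and JH3 and 36.3, 33.5 and 25.5 in LD1, LD2 and LD3, and thus showed the order of the LDHB entry within JH. Its log2 fold change was 3.03 (SE 0.61, 95% interval 1.66 to 4.40, adjusted p = 0.0408 in limma), and the groups did not overlap. Like LDHB, it was called without JH1 (adjusted p = 0.0216) and without JH3 (0.0134) and not without JH2 (0.0829), LD1 (0.126), LD2 (0.121) or LD3 (0.109). The sequences of the entries were not compared here, and whether they are separate genes or 1 gene placed more than once in the assembly was not tested. If they share sequence, the authors' counting could divide reads between them, so the level of either entry and their sum are uncertain. Added together, the entries gave 1306, 333 and 168 RPKM in JH and 52.1, 52.6 and 38.5 in LD, a log2 fold change of 3.14. This sum was formed after the data had been seen and carries no test. Beside LOC102161427 in the RefSeq order, GYS2, the glycogen synthase of liver, measured 139, 43.9 and 55.0 RPKM in JH and 27.2, 25.5 and 26.3 in LD, apart but not called (1.40, adjusted p = 0.114 in limma). The other neighbours read, GOLT1B at 0.06, KCNJ8 at -0.12 and ABCC9 at 0.15, overlapped between the breeds.

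LDHA, the subunit that is known to favour the direction from pyruvate to lactate, measured 69.1, 71.2 and 51.1 RPKM in JH1, JH2 and JH3 and 70.8, 56.3 and 46.7 in LD1, LD2 and LD3. The breeds overlapped across their whole range. The means were 63.8 ± 11.0 in JH and 57.9 ± 12.1 in LD (SD, n = 3 each), and the log2 fold change of 0.14 (SE 0.26) had a 95% interval of -0.44 to 0.73 and an adjusted p of 0.812 in limma. Both ends of that interval lay inside the limit of 1 that a call required.

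Set within each library, LDHB was 7.39 times LDHA in JH1, 1.88 times in JH2 and 1.18 times in JH3, but 0.224 times in LD1, 0.339 times in LD2 and 0.278 times in LD3. The order of the subunits was thus LDHB above LDHA in each JH pig and LDHA above LDHB in each LD pig. LDHB made up 88.1%, 65.3% and 54.1% of the sum of both subunit mRNAs in the JH pigs and 18.3%, 25.3% and 21.8% in the LD pigs. With the second LDHB entry counted in, the shares were 94.97%, 82.4% and 76.6% in JH and 42.4%, 48.3% and 45.2% in LD, and the breeds were again apart. A ratio within a library does not depend on the library's total, and it shows that the subunits differed unequally, not that LDHA was constant.

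**Figure D2:**
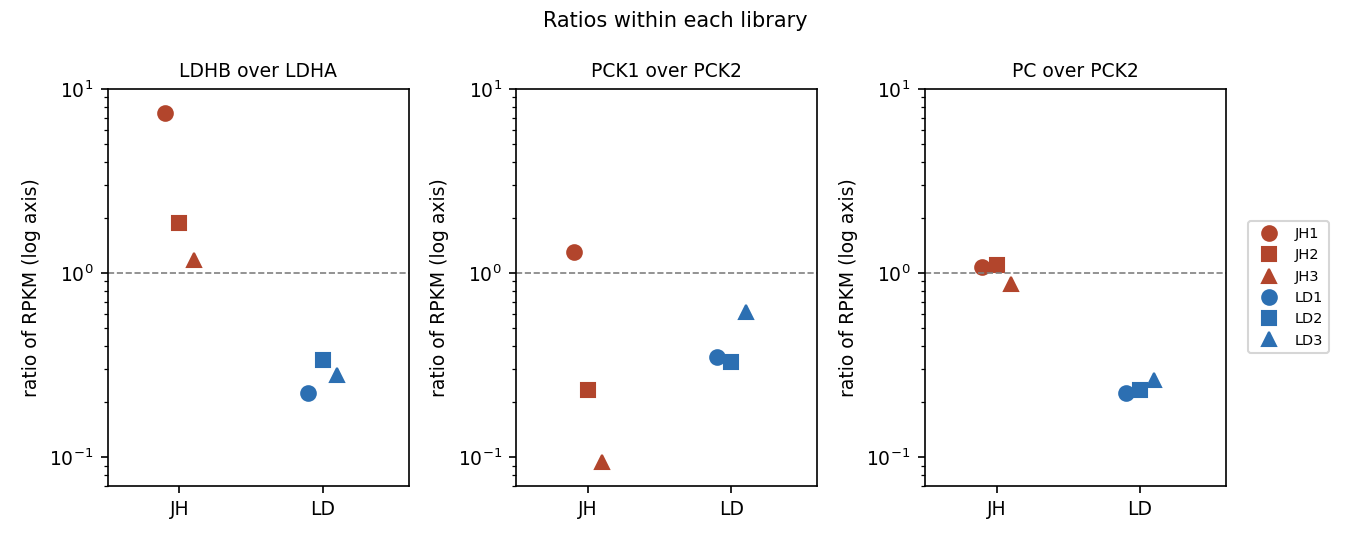
Ratios of RPKM within each library on a log axis for LDHB over LDHA, PCK1 over PCK2 and PC over PCK2, with a dashed line at equal levels. LDHB over LDHA is above 1 in the 3 JH libraries and below 1 in the 3 LD libraries, PC over PCK2 is near 1 in JH and between 0.222 and 0.261 in LD, and PCK1 over PCK2 overlaps between the breeds.

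At the PEPCK step, which turns oxaloacetate into phosphoenolpyruvate, the cytosolic enzyme PCK1 measured 753 RPKM in JH1, 85.0 in JH2 and 28.0 in JH3, and 99.4 in LD1, 113 in LD2 and 169 in LD3. JH1 was above all LD pigs, while JH2 and JH3 were below all of them. The JH pigs spanned 26.8-fold, the widest span of the 7 genes, against 1.70-fold in LD and against a median of 1.67-fold in JH over all genes tested. The means of 289 ± 403 and 127 ± 37.1 (SD, n = 3 each) therefore pointed to JH, whereas the log2 fold change was -0.03 (SE 0.95, 95% interval -2.18 to 2.12, adjusted p = 0.993 in limma). That value hung on single pigs, being -1.34 without JH1, 0.23 without JH2, 1.03 without JH3 and 0.20 without LD3, and it passed the test in none of these fits. Changes past the limit of a call in either direction lay within that interval, so the data do not bound PCK1 closely.

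PCK2, the mitochondrial form of the same enzyme, measured 576, 366 and 296 RPKM in JH1, JH2 and JH3 and 284, 345 and 276 in LD1, LD2 and LD3. The breeds overlapped, with JH1 and JH2 above all LD pigs and JH3 among them. The means were 413 ± 145 and 302 ± 37.5 (SD, n = 3 each), and the log2 fold change was 0.40 (SE 0.29, 95% interval -0.26 to 1.06, adjusted p = 0.511 in limma).

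The cytosolic form was 1.31 times the mitochondrial form in JH1, 0.232 times in JH2 and 0.0946 times in JH3, and 0.350, 0.329 and 0.613 times in LD1, LD2 and LD3. PCK2 was thus the more abundant form in all libraries except JH1. PC, which supplies the substrate of both forms, was 1.07, 1.11 and 0.877 times PCK2 in the JH pigs and 0.222, 0.233 and 0.261 times PCK2 in the LD pigs. Of the pairs shown, this ratio was the tightest within each breed and did not overlap between them.

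FBP1, which removes a phosphate from fructose 1,6-bisphosphate, measured 1430 RPKM in JH1, 740 in JH2 and 441 in JH3, and 479 in LD1, 418 in LD2 and 357 in LD3. It was the most abundant of the 7 genes in each of the 6 libraries. JH1 and JH2 were above all LD pigs, and JH3 was below LD1. The means were 871 ± 507 and 418 ± 60.9 (SD, n = 3 each), and the log2 fold change of 0.90 (SE 0.40, unadjusted p = 0.0487) did not pass over all genes, with an adjusted p of 0.277 in limma. It was 0.46 without JH1 and 1.31 without JH3, the extremes of the fits that left out a library.

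SLC37A4 carries glucose 6-phosphate into the endoplasmic reticulum, where glucose is set free for release. It measured 242, 135 and 109 RPKM in JH1, JH2 and JH3 and 41.9, 62.1 and 90.2 in LD1, LD2 and LD3. The breeds did not overlap, but JH3 and LD3 stood close together. The means were 162 ± 70.5 and 64.7 ± 24.2 (SD, n = 3 each), with a log2 fold change of 1.30 (SE 0.37, 95% interval 0.46 to 2.15), an unadjusted p of 0.00662 and an adjusted p of 0.117 in limma. It was not called in any of the fits that left out a library, and its log2 fold change lay between 0.97 and 1.58 in those fits.

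G6PC, the phosphatase that works behind this carrier, was not analysed here, so the last step of the route is described by its carrier only. Of its relatives, G6PC3, the form found in most tissues, measured 18.3, 16.1 and 10.19 RPKM in JH and 12.2, 13.6 and 10.3 in LD (log2 fold change 0.27, adjusted p = 0.657 in limma), and G6PC2, the form of pancreatic islets, was listed at 0 in all 6 libraries. PPARGC1A, a coactivator of the gluconeogenic genes in fasting, matched only by its older symbol PPARGC-1, which was listed at 0 in all 6 libraries. APOB, BSG and PRKAA1, which liver cells are known to use, were listed at 0 in all 6 libraries too, so that a value of 0 may be a failed estimate and gives no level of PPARGC1A.

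**Figure D3:**
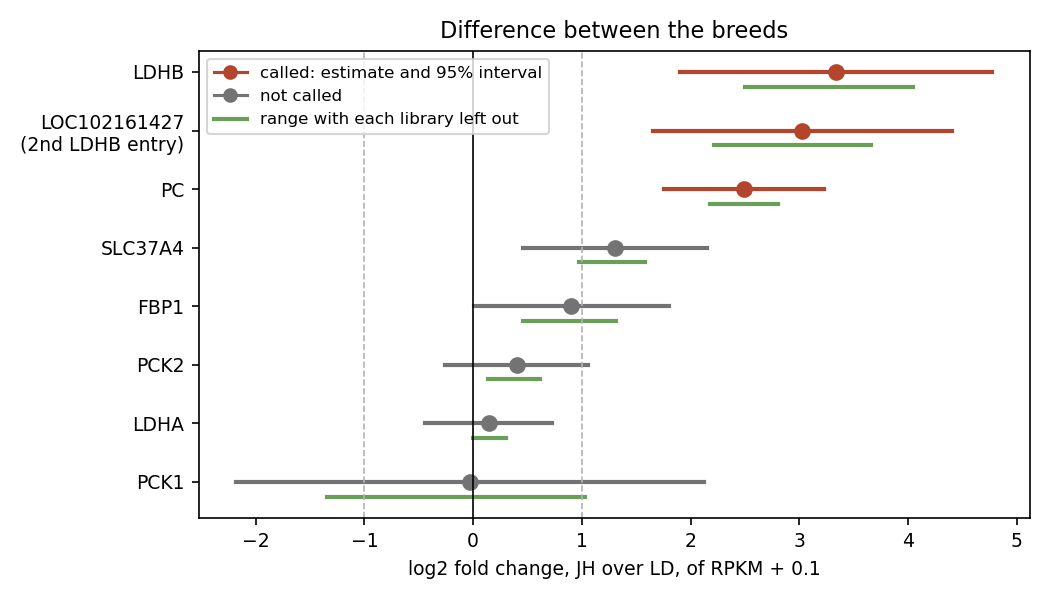
Log2 fold change of each listed gene, JH over LD on log2(RPKM + 0.1), with its 95% interval, red for the genes called and grey for the others, and in green the range over the fits that left out each library in turn. LDHB at 3.34, LOC102161427 at 3.03 and PC at 2.49 lie clear of the dashed line at 1 in every fit, and PCK1 at -0.03 has the widest interval and lies on both sides of 0.

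The genes were ordered alike in the LD pigs, where FBP1, PCK2 and PCK1 were the leading genes in that order and LDHB came last in each library. FBP1 came first in the JH pigs as well, and PC was among the first 3. PCK1 came second in JH1, next to last in JH2 and last in JH3. Among the LD pigs the genes between the top and the bottom, namely PC, SLC37A4 and LDHA, changed places with each other and lay between 41.9 and 90.2 RPKM.

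Within JH, JH1 was the highest pig for 6 of the 7 genes and JH3 the lowest for all 7. JH1 was the highest JH library for 42.7% of all genes tested and JH3 the lowest for 56.2%, and both held together for 29.6% of all genes tested and for 6 of the 7. The span between the JH pigs was 26.8-fold for PCK1, 8.47-fold for LDHB, 3.24-fold for FBP1, 2.38-fold for PC, 2.22-fold for SLC37A4, 1.94-fold for PCK2 and 1.39-fold for LDHA. In LD the spans lay between 1.25-fold for PCK2 and 2.15-fold for SLC37A4, around the median of 1.54-fold over all genes tested. JH1 had the fewest reads of the 6 libraries and JH3 the highest RN18S level, and the part of either in this order was not tested.

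The markers of other cells differed between the breeds as well. In bulk tissue, fewer cells of a type and less RNA per cell cannot be told apart. The summed stellate cell and fibroblast markers lay at 86.7 to 105 RPKM in JH and 200 to 397 in LD, with COL1A1, COL1A2 and COL3A1, of which COL3A1 was the most abundant, called among 9 tested, all lower in JH. Erythrocyte markers lay at 91.3 to 123 RPKM in JH and 214 to 394 in LD, almost all of it HBB, which was called, and bile duct markers at 9.39 to 20.2 and 22.0 to 54.6, led by SPP1 and with EPCAM called and KRT7 at 0. Endothelial markers lay at 58.6 to 69.6 and 84.0 to 95.1, macrophage markers at 214 to 459 and 389 to 587, and lymphocyte markers at 22.5 to 83.0 and 27.7 to 31.8, with 0 genes called by limma or by voom in each. At an unadjusted p below 0.05, 2 endothelial genes were lower, 1 macrophage gene was higher and 0 lymphocyte genes passed. PECAM1, CD14 and NKG7 were the most abundant genes of these lists. Muscle, kidney and pancreas markers, led by MYLPF, SLC12A1 and CPA1, stayed below 1 RPKM in each library.

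The summed intestinal markers lay at 6724 RPKM in JH1, 1925 in JH2 and 860 in JH3 and at 74.1 to 83.6 in LD, in the order of LDHB within JH. Nearly all of this was APOA4, an apolipoprotein of intestine that liver can also make, which was called higher in JH (log2 fold change 8.57). The defining intestinal genes SI and CDX1 were at 0 in all libraries and LCT and FABP2 were at 0 in JH, CDX2 was called higher at up to 1.27 RPKM, and CDHR5 was called lower (log2 fold change -4.42). A value of 0 may be a failed estimate, as for APOB, and does not show that a gene was absent. Of the 4 intestinal genes tested, 3 were higher and 1 was lower at an unadjusted p below 0.05 in limma. The part of these markers in the values of PC and LDHB was not tested.

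The rest of the route was read from lists of genes around these steps, of which 137 genes were tested, 4 called higher in JH and 4 called lower. Over all 12991 genes tested, 1.02% were called higher and 1.36% lower. At an unadjusted p below 0.05 in limma, 1084 of the 12991 were higher and 1236 lower. Of the 7 reversible enzymes that gluconeogenesis shares with glycolysis, 6 had a log2 fold change above 0, the median was 0.36 and 1 was called. That gene was GAPDH, which interconverts glyceraldehyde 3-phosphate and 1,3-bisphosphoglycerate. It measured 1392, 1242 and 866 RPKM in JH and 464, 522 and 322 in LD, with a log2 fold change of 1.42 (SE 0.29, adjusted p = 0.0431 in limma).

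Of the enzymes and switches of the opposing glycolytic steps, 12 were tested, 0 were called by limma or by voom, and 0 were higher and 3 lower at an unadjusted p below 0.05. Their median was -0.22, with 5 above 0 and 7 below. PKLR, the liver pyruvate kinase that works against the PC and PEPCK steps, measured 19.6, 26.2 and 50.2 RPKM in JH and 68.6, 69.1 and 63.2 in LD. All JH values were below the LD values, at a log2 fold change of -1.18 (SE 0.34, adjusted p = 0.118).

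Around the lactate and pyruvate entry, 17 genes of transport and pyruvate oxidation were tested, with 12 above 0, a median of 0.15 and 0 called by limma or by voom, while 4 were higher and 0 lower at an unadjusted p below 0.05. MPC2, a subunit of the carrier that brings pyruvate to PC in mitochondria, measured 179, 145 and 82.3 RPKM in JH and 61.0, 61.5 and 55.1 in LD. Its breeds did not overlap, and the log2 fold change of 1.12 (SE 0.31) had an adjusted p of 0.103. EMB, a partner of lactate carriers listed as LOC100622067, differed by -1.24 (adjusted p = 0.375).

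Among 10 genes of the shuttles that carry carbon between mitochondrion and cytosol, 5 were above 0 and 0 were called by limma or by voom, with 3 higher and 1 lower at an unadjusted p below 0.05. MDH1, the cytosolic malate dehydrogenase that releases the oxaloacetate made by PC, measured 157, 114 and 130 RPKM in JH and 62.2, 77.1 and 66.0 in LD, apart but not called (0.96, SE 0.24, adjusted p = 0.0784). ME1, the cytosolic malic enzyme, differed by -1.39 (adjusted p = 0.228). Of 10 genes by which glycerol and amino acids enter, 6 were above 0 and 0 were called by limma, with 2 higher and 1 lower at an unadjusted p below 0.05. SDS, which deaminates serine, stood at 1.18 (adjusted p = 0.194) and AGXT, an aminotransferase listed as LOC100517616, at 1.16 (adjusted p = 0.289). AQP9, the channel by which hepatocytes take up glycerol, measured 66.5, 88.0 and 68.4 RPKM in JH and 148, 133 and 173 in LD, with all JH values lower. It was the 1 gene of this list that voom called, and in limma it stood at -1.03 (SE 0.24, adjusted p = 0.0614). Of 10 tested relatives of the 9 genes 0 were called by limma or by voom, with 2 higher and 1 lower at an unadjusted p below 0.05, FBP2, the muscle form, standing at -1.29 (adjusted p = 0.266) and ACACA, another biotin carboxylase, at -1.05 (adjusted p = 0.282).

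**Figure D4:**
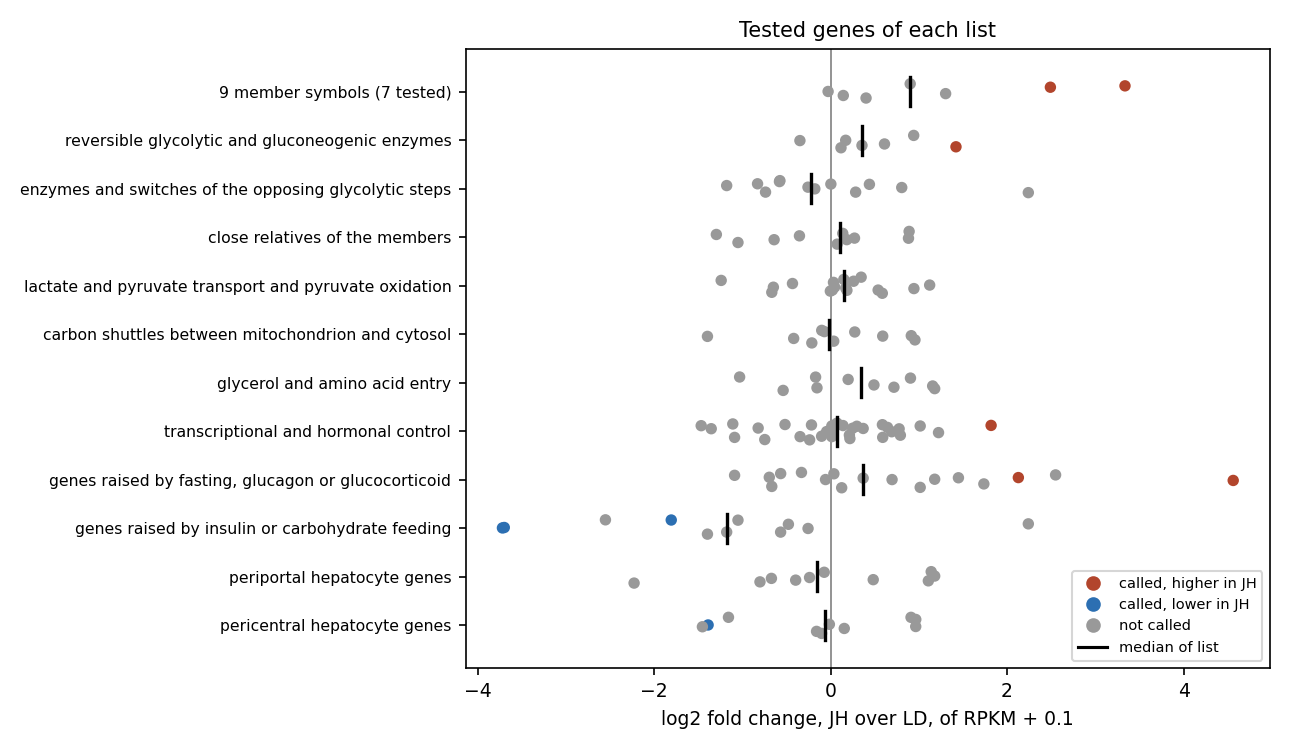
Log2 fold change, JH over LD on log2(RPKM + 0.1), of each tested gene of the 7 listed genes and of the lists around them, 1 point per gene, with a line at the list's median. The 7 genes have a median of 0.90 and the genes raised by insulin or carbohydrate feeding one of -1.18, and most points of each list are grey, that is, not called.

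Among the regulators, 33 genes of transcriptional and hormonal control were tested, with 21 above 0, a median of 0.07 and 1 called by limma and 2 by voom, all higher in JH. At an unadjusted p below 0.05, 4 were higher and 6 were lower. NR0B2, a nuclear receptor without a DNA-binding domain that represses bile acid and gluconeogenic genes, was listed as LOC100526226 and measured 39.2, 22.2 and 38.8 RPKM in JH and 11.3, 10.9 and 6.04 in LD. It was called higher at 1.82 (SE 0.34, adjusted p = 0.0337 in limma). FOXO3, a transcription factor that insulin signalling holds out of the nucleus, was at 1.64, 2.10 and 5.69 RPKM in JH and 6.55, 5.83 and 11.8 in LD, a log2 fold change of -1.47 (adjusted p = 0.146, and 0.0488 in the fit with a replicate block, where it was called).

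Of 17 tested genes known to be raised by fasting, glucagon or glucocorticoid, 11 were above 0, the median was 0.37, and 2 were called by limma and 3 by voom, all higher in JH. At an unadjusted p below 0.05, 6 were higher and 2 were lower. FGF21, a hormone of the fasting liver, measured 23.1, 10.3 and 5.93 RPKM in JH and 0.475, 0.940 and 0.0852 in LD (4.56, SE 0.66, adjusted p = 0.0117). The LD3 value of FGF21 lay below the pseudocount of 0.1, so the size of its change is uncertain. It was 3.08 with a pseudocount of 1 and 4.995 with 0.01. CPT1A, which admits fatty acids to mitochondria, measured 165, 72.7 and 51.0 RPKM in JH and 15.8, 18.2 and 25.3 in LD (2.13, SE 0.41, adjusted p = 0.0370). Both had the order of PC and LDHB within JH.

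Of 11 tested genes known to be raised by insulin or carbohydrate feeding, 10 were below 0, the median was -1.18 and 3 were called, all lower in JH, with 0 higher and 6 lower at an unadjusted p below 0.05. SCD, which makes monounsaturated fatty acids, measured 6.48, 11.8 and 59.3 RPKM in JH and 185, 204 and 267 in LD (-3.70, SE 0.67, adjusted p = 0.0301). FADS1, a desaturase of polyunsaturated fatty acids, stood at -3.72 (adjusted p = 0.0438) and ACSS2, which activates acetate, at -1.81 (adjusted p = 0.0345). The genes in question make lipid, and none is a step of gluconeogenesis.

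Gluconeogenesis is known to run mostly in periportal hepatocytes, and the zonation genes showed no shared direction. Of 10 periportal genes tested 0 were called by limma, with a median of -0.15, and 3 were higher and 3 lower at an unadjusted p below 0.05. HSD17B13, a lipid droplet enzyme, stood at -2.23 (adjusted p = 0.0754) and was the 1 gene of this list that voom called. Of 10 pericentral genes tested 1 was called, with a median of -0.06, namely GLUL, the glutamine synthetase of cells around the central vein (-1.39, SE 0.30, adjusted p = 0.0490), while CYP7A1, the rate-limiting enzyme of bile acid synthesis, stood at -1.45 (adjusted p = 0.147). The 8 calls in these lists hung on single libraries, as the count was 3 without JH1, 3 without JH2, 18 without JH3, 0 without LD1, 1 without LD2 and 2 without LD3.

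The genes whose profile over the 6 libraries was nearest to that of PC were ARG2, OLFM1 and LOC100627784, at root mean square distances of 0.168, 0.169 and 0.210 on the log2 scale between centred profiles. ARG2, the mitochondrial arginase, measured 31.3, 18.8 and 13.7 RPKM in JH and 3.37, 3.46 and 4.49 in LD. The nearest to LDHB was its own second entry, LOC102161427, at a distance of 0.206, followed by LIPK, a lipase, at 0.329 and APOA5, an apolipoprotein of triglyceride metabolism, at 0.442. APOA5 measured 2439, 1032 and 605 RPKM in JH and 121, 83.9 and 115 in LD. All 6 genes were themselves called higher in JH, which choosing profiles near that of a called gene favours, and the distances describe 6 libraries only. LIPK had 1, 3 and 1 reads in LD1, LD2 and LD3, so its LD values lay near the pseudocount. Its adjusted p was 0.0465 in limma, and it was not called in the fit with a replicate block (adjusted p = 0.0554).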

How the data were processed

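Total RNA of the livers gave 1 mRNA library per pig, sequenced as 50 bp single reads. The authors removed adaptor and low quality reads, aligned the rest with TopHat2 2.0.13 and took the number of reads on each gene from gfold. The deposited values are RPKM, in 1 file per library. Strand handling was not given in the sources used here. Libraries were assigned to breed and replicate by their public sample titles, and p-values measure the spread between these 3 pigs per breed.

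A gene was tested where 3 or more libraries reached an RPKM of 0.5. The breeds were compared by linear models of log2(RPKM + 0.1), with variances moderated along the mean level (limma 3.58.1 in R 4.3.3). The pseudocount of 0.1 understates the change of low genes. The authors' own test needs counts. Whole reads were recovered from the 6 significant digits of the RPKM for 19514 of 19612 genes above 0, among them all 7 members, and served for depth and for an alternative with voom. Reads are not independent molecules, so they describe counting error only. Fits were tested on simulated reads with the same dispersion for every gene and in both breeds. That check does not cover genes with unequal spread between the breeds, such as LDHB and PCK1. Python 3.11.15, pandas 2.3.3 and matplotlib 3.10.9 served for tables and plots.

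The members and gene lists were chosen with earlier results of these data known. Named genes are the members, the called genes of each pathway list and the 2 that differed most in it, the most abundant gene of each cell type list, and the 3 nearest profiles of each called member. A few genes that this rule names are not reported here. Neighbours, the second LDHB entry, the sum of both, and further markers and pathway genes such as AQP9 and G6PC3 were added after values had been seen. Gene order and older symbols came from RefSeq of Sscrofa11.1, a later assembly than that of the files, so no coordinates are given. Alternatives were other pseudocounts, filters, scalings, tests and call limits, a replicate block, and each library left out.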

Additional observations from a re-analysis of the deposited data

How the results depend on the processing

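PC was called in every alternative fit, at log2 fold changes of 2.18 to 2.81 with each library left out. LDHB was not called with no filter on low values (3.34, adjusted p = 0.0590) or in eBayes without a trend (3.34, adjusted p = 0.0623), and ranged from 2.50 to 4.04 with each library left out. With each library left out PCK1 ranged from -1.34 to 1.03, and LDHA turned to -0.0400 under quantile normalization. The count of called members was 2 in the reported fit, 1 with no filter, 1 without a trend, 1 to 2 with each library left out and 4 at an unadjusted p with no fold limit, where FBP1 at 0.90 and SLC37A4 at 1.30 passed. Over all genes 310 were called, 199 with a pseudocount of 0.01, 200 with no filter, 79 to 406 with each library left out and 2320 at an unadjusted p. In the pathway lists 8 were called, 5 with a pseudocount of 0.01, 2 with no filter, 1 without a trend, 0 to 18 with each library left out and 48 at an unadjusted p. The cause of these shifts was not tested.

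No pairing of the pigs was described, and deviations of same-numbered pigs from their breed means correlated at -0.02, 0.05 and 0.18. RN18S was lowest in JH2 and LD2 (1570 and 2108 RPKM) and highest in JH3 and LD3 (62257 and 20160 RPKM). The median RPKM of the genes tested was 5.03 in JH1 and 4.99 in LD1, 5.23 in JH2 and 5.15 in LD2, and 4.18 in JH3 and 4.19 in LD3. The correlations cannot show whether same-numbered libraries were handled together, and this was not tested. With the replicate block, 253 genes were called, 200 of them among the 310, PC and LDHB stayed called, and 5 pathway genes were called, with CPT1A, NR0B2, FADS1 and GLUL not among them and FOXO3 added (-1.47, adjusted p = 0.0488). The neighbour RCE1 was not called (adjusted p = 0.0504). The median of all genes moved by -0.11 when libraries were scaled without RN18S, and the calls of PC and LDHB held there. The interval of PCK1 was wide at the spread in JH.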
